A study of Homo sapiens with 3 samples.

Results

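Metallothioneins and the genes that handle zinc were followed in Huh7 cells, an established human hepatoma line, after exposure to chlorogenic acid (CA). The group held 10 genes, listed by name, out of 19740 gene symbols that could be named. Earlier results of these data were known when the group was chosen. They were 8 metallothioneins (MT1A, MT1B, MT1E, MT1F, MT1G, MT1H, MT1X and MT2A), the transcription factor MTF1 and the zinc exporter SLC30A1. Their probes were found through the RefSeq accession given for each probe, which yielded 12 of 34127 probes. All 10 genes had a probe, and 11 of the 12 probes were well above background on all 3 arrays, the exception being the second probe of MT1H.

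Cells received no CA, or CA at 50 or 100 μM for 24 h in a serum-containing medium, and total RNA of each group was read on 1 one-colour Agilent array. The methods of the study name DMSO, the solvent of CA, as the vehicle reference that served as the untreated control. With 1 array per group there was no replicate check and no p-value could be given, so every difference below is a description of these arrays. All ratios to untreated share the same untreated array, so an error of that array would enter both of them. The measure is the processed signal of a spot in arbitrary intensity units, and ratios are given on the log2 scale after each array was divided by its own 75th percentile, which was 1059 units for untreated, 1207 for 50 μM CA and 1249 for 100 μM CA.

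Metallothioneins are small cysteine-rich proteins that bind zinc and copper and also toxic metals such as cadmium, and the liver is a major site of their synthesis. Their genes are switched on by MTF1, a zinc finger factor that senses free zinc and binds metal response elements in their promoters. SLC30A1 (ZnT1), which carries zinc out of the cell across the plasma membrane, is another known target of MTF1. The SLC30 proteins lower zinc in the cytosol, by export or by loading organelles, and the SLC39 proteins carry zinc into it. CA is an ester of caffeic and quinic acid and carries a catechol group, a kind of group that can bind metal ions.

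The promoters that could be obtained were searched for the core of the metal response element, and those of the members that hold it are given here. RefSeq (GRCh38.p14) supplied 250 bases before the annotated start for 6 of the 10 members, MT1B, MT1H, MT1X, MT2A, MTF1 and SLC30A1. The metallothionein promoters lie on the plus strand of chromosome 16, MT2A at chr16:56608334-56608583, MT1B at chr16:56651636-56651885, MT1H at chr16:56669564-56669813 and MT1X at chr16:56682220-56682469, and that of SLC30A1 lies on the minus strand at chr1:211579162-211579411. Each is printed 5′ to 3′ along the strand of its gene, and capitals mark matches to TGCACNC or TGCGCNC on either strand, the core of the metal response element. Matches did not overlap each other.
MT2A: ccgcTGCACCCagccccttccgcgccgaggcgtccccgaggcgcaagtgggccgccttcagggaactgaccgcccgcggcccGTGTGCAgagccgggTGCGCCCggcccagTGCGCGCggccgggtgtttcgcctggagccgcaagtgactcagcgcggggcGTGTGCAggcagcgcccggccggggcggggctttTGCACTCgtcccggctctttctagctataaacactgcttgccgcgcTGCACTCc
MT1H: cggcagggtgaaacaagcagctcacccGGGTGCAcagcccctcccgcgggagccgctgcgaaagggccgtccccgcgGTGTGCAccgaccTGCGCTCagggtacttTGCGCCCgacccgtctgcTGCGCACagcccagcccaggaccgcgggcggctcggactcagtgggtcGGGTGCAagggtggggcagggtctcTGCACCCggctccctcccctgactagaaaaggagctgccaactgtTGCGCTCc
MT1X: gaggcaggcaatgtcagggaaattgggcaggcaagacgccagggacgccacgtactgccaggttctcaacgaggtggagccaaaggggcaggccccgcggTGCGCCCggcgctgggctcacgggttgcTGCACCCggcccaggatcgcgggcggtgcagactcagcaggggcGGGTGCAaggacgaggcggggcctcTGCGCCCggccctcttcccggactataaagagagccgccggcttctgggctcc
MT1B: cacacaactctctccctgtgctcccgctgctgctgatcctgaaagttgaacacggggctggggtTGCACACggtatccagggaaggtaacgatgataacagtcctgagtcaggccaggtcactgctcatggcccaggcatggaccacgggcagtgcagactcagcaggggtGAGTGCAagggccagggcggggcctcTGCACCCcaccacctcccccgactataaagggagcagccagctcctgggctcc
SLC30A1: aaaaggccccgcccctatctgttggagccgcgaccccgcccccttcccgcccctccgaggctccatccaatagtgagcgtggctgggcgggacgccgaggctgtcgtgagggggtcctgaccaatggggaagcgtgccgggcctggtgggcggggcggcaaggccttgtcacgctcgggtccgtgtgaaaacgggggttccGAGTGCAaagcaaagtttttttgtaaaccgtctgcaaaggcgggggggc

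The core was found at 8 places in the MT1H promoter, 7 in that of MT2A, 4 in that of MT1X and 3 in that of MT1B. The promoter of MT4, a metallothionein outside the group, also held 3, and its probe was not well above background on any array. Among 35116 promoters of the same length, 0.0171% held at least as many as MT1H, 0.0313% as many as MT2A, 0.370% as many as MT1X and 1.58% as many as MT1B. SLC30A1 held 1 match, where 24.8% of all promoters held at least 1, and the MTF1 promoter, at chr1:37859593-37859842 on the minus strand, held 0. MT2A, MT1H, MT1X and MT1B each had a match that began 53 or 54 bases before the start, and MT2A and MT1H each had another 8 bases before it. A match describes letters in this window and is not evidence of a bound site, and no binding was measured here.

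**Figure D1:**
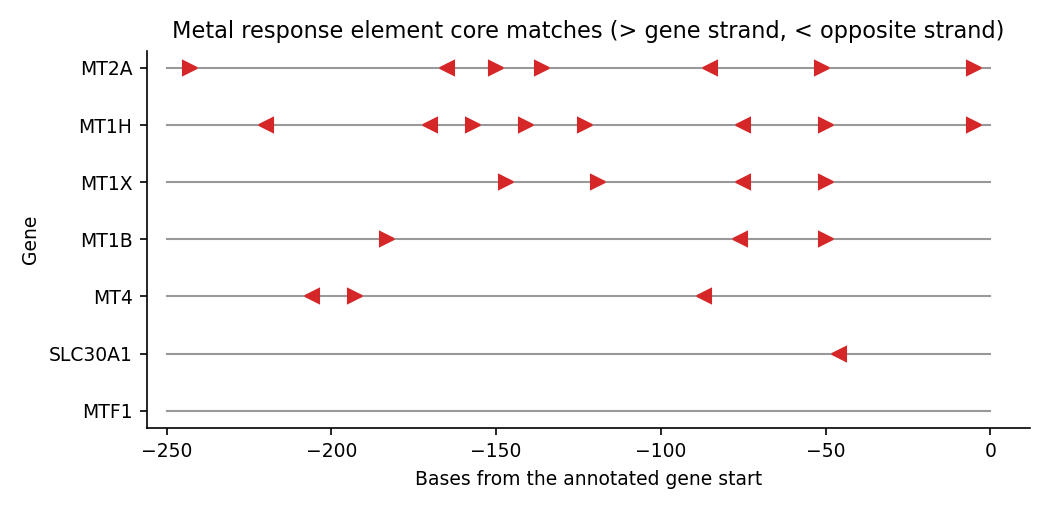
Positions of the metal response element core in promoters of MT2A, MT1H, MT1X, MT1B, MT4, SLC30A1 and MTF1. The x axis gives bases from the annotated gene start, and each triangle is a match on the strand of the gene (pointing right) or on the opposite strand (pointing left). MT1H holds 8 matches, MT2A 7 and MT1X 4, MT1B and MT4 hold 3 each, SLC30A1 holds 1 and MTF1 0.

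The 9 measured metallothionein probes of the group were all lower on both CA arrays than on the untreated array, by 1.17- to 1.98-fold at 50 μM CA and by 1.09- to 1.89-fold at 100 μM CA. Their median log2 ratio was -0.68 at 50 μM CA and -0.59 at 100 μM CA, beside -0.01 over 22471 probes and -0.02 over 22267 probes measured in the same comparisons. Of all probes, 51.8% were below 0 at 50 μM CA and 54.8% at 100 μM CA. The untreated array gave the highest scaled value for 9 of 9 metallothionein probes, against 41.1% of the 22114 probes measured on all arrays. A probe may also have bound RNA of related metallothioneins, so such counts are not counts of independent readings. MTF1 and SLC30A1 were also lower on both CA arrays, but with log2 ratios between -0.13 and -0.19.

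No member reached a 2-fold difference in either direction, a size that 0.458% of all probes reached downwards and 0.614% upwards at 50 μM CA, and 0.256% and 0.638% at 100 μM CA. A limit of 1.5-fold was added after the values had been seen. At 50 μM CA, 5 of the 11 measured member probes were at least 1.5-fold lower (MT1B, MT1E, MT1G, MT1H and MT2A), beside 2.17% of all probes, and 0 were as much higher, beside 5.05%. At 100 μM CA, 5 of 11 were at least 1.5-fold lower (MT1B, MT1E, MT1F, MT1G and MT2A), beside 1.80% of all probes, and 0 were as much higher, beside 2.51%. The members nearest the limit at 100 μM CA were MT2A and MT1F, just past it with log2 ratios of -0.59 each, and MT1H, just short of it at -0.58.

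**Figure D2:**
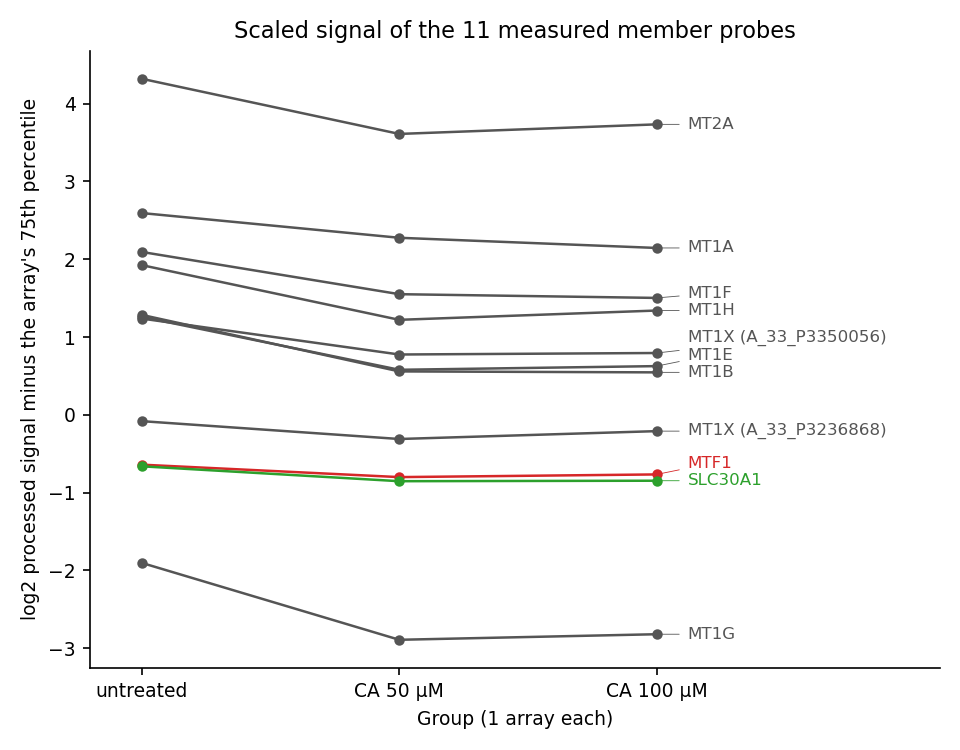
Scaled signal of the 11 measured member probes on the untreated, 50 μM CA and 100 μM CA arrays (1 array each), on the y axis as log2 processed signal minus the 75th percentile of the array. Lines join the values of 1 probe, and since probes bind with different strength their heights cannot be set against each other. Every metallothionein line (grey) is highest at untreated, MT2A passing from 4.32 to 3.61 and 3.73, and the MTF1 (red) and SLC30A1 (green) lines are nearly flat.

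MT2A encodes the main metallothionein of most human cells. Its probe read 21120 units on the untreated array, 14738 on the 50 μM CA array and 16601 on the 100 μM CA array. The untreated array stood above both CA arrays before any scaling, and after scaling the probe was 1.63-fold lower at 50 μM CA, a log2 ratio of -0.71, with a ratio of -0.59 at 100 μM CA. Spread depends on signal, so all probes were also divided into 10 classes of signal. Of the 2247 probes in the class of MT2A, 0.089% were as low at 50 μM CA, and in its class at 100 μM CA the share was 0.225%.

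The MT1 genes lie next to MT2A and encode close relatives of it, each with the same pattern of cysteines that hold the metal. MT1G had the largest log2 ratios of the group, with 283 units on the untreated array, 163 at 50 μM CA and 177 at 100 μM CA. The differences were 1.98-fold (log2 ratio -0.99) and 1.89-fold (-0.92) downwards, with 0.485% and 0.323% of all probes as low. The 100 μM CA spot of MT1G lay in an area where dim probes were bright on that array alone, so its value there is less certain, while the 50 μM CA spot did not.

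MT1B and MT1E had similar ratios. MT1B read 2578 units untreated, 1777 at 50 μM CA and 1823 at 100 μM CA, 1.65- and 1.67-fold lower after scaling (log2 ratios -0.73 and -0.74). MT1E read 2533, 1803 and 1927 units in the same order, 1.60- and 1.55-fold lower (-0.68 and -0.63). For both genes the untreated array was the highest and the CA arrays lay within 0.05 of each other on the log2 scale.

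MT1F and MT1H were lower to a like extent. The MT1F probe read 4517 units untreated, 3536 at 50 μM CA and 3538 at 100 μM CA, with log2 ratios of -0.54 and -0.59. The first MT1H probe read 4016, 2814 and 3162 units, with log2 ratios of -0.70 and -0.58. The 50 μM CA spots of MT1E, MT1F and MT1H carried a flag on their local background, and the ratios of these genes at 100 μM CA do not rest on those spots. The second MT1H probe read 6.80, 4.99 and 3.05 units and was not well above background on any array, so that no ratio was formed.

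MT1A and MT1X differed least among the metallothioneins of the group. MT1A read 6387 units untreated, 5844 at 50 μM CA and 5521 at 100 μM CA, with log2 ratios of -0.32 and -0.45, and among the member probes it had the lowest log2 ratio of 100 μM CA over 50 μM CA (-0.13). The 2 probes of MT1X disagreed in size. One (A_33_P3350056) read 2495, 2066 and 2166 units, 1.38- and 1.36-fold lower (-0.46 and -0.44), and the other (A_33_P3236868) read 1001, 973 and 1080 units (-0.23 and -0.13). For the latter, 19.0% and 28.2% of all probes were as low, and its unscaled intensity at 100 μM CA was above that of the untreated array, the exception among the 9 metallothionein probes. At 50 μM CA all 9 were lower than untreated before scaling too.

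MTF1 and SLC30A1 lay within the spread of most probes. MTF1 read 679 units untreated, 693 at 50 μM CA and 734 at 100 μM CA, with log2 ratios of -0.16 and -0.13 and with 28.0% and 28.8% of all probes as low. SLC30A1 read 669, 668 and 694 units, with log2 ratios of -0.19 and -0.19 and 23.7% and 19.4% of all probes as low. Both genes had higher unscaled readings on the 100 μM CA array than on the untreated array, and their scaled values were lower because the whole 100 μM CA array was brighter. The array reads the mRNA of MTF1 and not the activity of the factor.

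**Figure D3:**
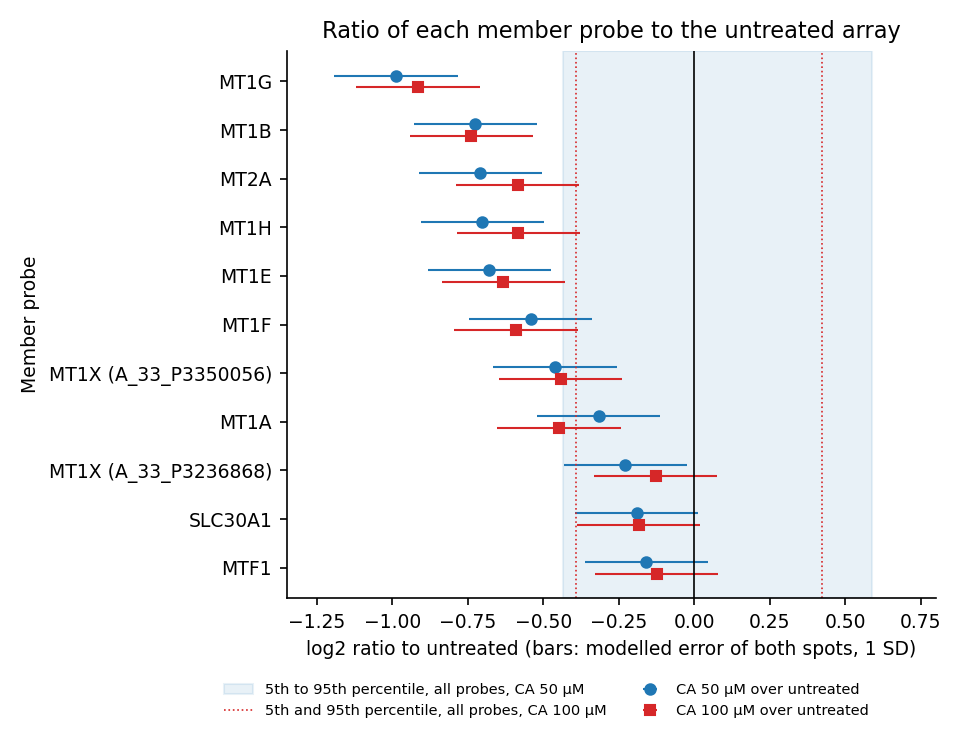
Log2 ratio of each measured member probe to the untreated array at 50 μM CA (blue circles) and 100 μM CA (red squares), with bars of 1 SD from the error model of the scanner software for both spots and not from replicates. The shaded band and the dotted lines hold the 5th to 95th percentile of all probes, -0.43 to 0.59 at 50 μM CA and -0.39 to 0.42 at 100 μM CA. MT1G lies farthest to the left at -0.99 and -0.92. MTF1, SLC30A1 and the MT1X probe A_33_P3236868 lie inside these limits at both doses, and MT1A does at 50 μM CA.

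Technical error could be judged in 2 ways without replicates. The scanner software gave each spot a modelled error, which amounted to 0.20 to 0.21 on the log2 scale for the ratio of a metallothionein probe. At 50 μM CA, 7 of 9 metallothionein probes were lower by more than 2 such errors, beside 4.56% of all probes, and at 100 μM CA 8 of 9 were, beside 2.85%. A further 814 measured probes were printed at several places on the arrays, and the SD of the 50 μM CA ratio among spots of 1 probe had a median of 0.065, from 0.13 in the dimmest of 4 classes of signal to 0.050 in the brightest. These errors cover spots on the same arrays and leave out differences between cultures, RNA extracts and labelling reactions. They also do not make the metallothionein probes independent readings, since a probe may have bound RNA of related genes.

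The probes of the group were spread over the array, between rows 2 and 499 of 532 and columns 28 and 72 of 85. Around the metallothionein spots, windows of 17 rows and 7 columns had median log2 ratios from -0.10 to 0.04 at 50 μM CA and from -0.07 to 0.03 at 100 μM CA.

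Between the CA doses the members differed little. The 9 metallothionein probes had log2 ratios of 100 μM CA over 50 μM CA from -0.13 (MT1A) to 0.12 (MT2A and MT1H), with a median of 0.05, and 6 were above 0 and 3 below, where 52.2% of all probes were below 0. For all 11 members 0 were 1.5-fold apart in either direction, beside 3.62% of all probes. None of the 9 was lower by more than 2 modelled errors, beside 4.71% of all probes. The lowest of the 3 arrays was that of 50 μM CA for 6 metallothionein probes and that of 100 μM CA for 3, beside 37.1% and 28.2% of the probes measured on all arrays. With 1 array a dose this does not show that the doses act alike.

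The metallothioneins outside the group formed a further list of 8 genes, of which 6 had a probe and 5 were measured. MT1M, a functional gene next to MT1E, read 5087 units untreated, 3286 at 50 μM CA and 3675 at 100 μM CA, with log2 ratios of -0.82 and -0.71. The pseudogene MT1L read 2027, 1361 and 1377 units (-0.76 and -0.80). The dim probe of the pseudogene MT1DP read 44.2, 33.8 and 33.2 units (-0.58 and -0.65). These 3 were lower on both CA arrays, as the members were. At least 1.5-fold lower were 2 of the 5 at 50 μM CA, beside 2.17% of all probes, and 3 of the 5 at 100 μM CA, beside 1.80%.

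The other two measured genes did not share that direction at 50 μM CA. MT3, a metallothionein best known from the brain, read 1288, 1674 and 1432 units, with log2 ratios of 0.19 and -0.08. The pseudogene MT1IP read 107, 169 and 122 units (0.47 and -0.05). MT4, which is known from squamous epithelia, was not well above background on any array, with 2.87 to 3.56 units. Over all 14 measured metallothionein probes of 13 genes, 12 were below 0 at 50 μM CA and 14 at 100 μM CA. Of all probes, 51.8% and 54.8% were below 0. The medians of the 14 probes were -0.63 and -0.59, and MT3 and MT1IP lay close to 0 at 100 μM CA. Metallothionein transcripts are near copies of each other and the probe sequences were not examined here, so a probe may also have bound the RNA of its relatives, and the probes cannot be counted as independent readings of separate genes.

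The metallothionein genes form a cluster on chromosome 16, so the nearest genes with a probe, 3 on each side, were read as well. Of these, 5 genes with 6 probes were measured, and their median log2 ratio was 0.00 at 50 μM CA and 0.05 at 100 μM CA. BBS2, which flanks the cluster on the side of MT4 and MT3, had log2 ratios of -0.21 and -0.09, and NUP93, which flanks it beyond MT1X, had 0.21 and 0.13. The values ran from -0.34 (HERPUD1, a gene of the endoplasmic reticulum stress response) to 0.35 (OGFOD1, a prolyl hydroxylase of a ribosomal protein) at 50 μM CA and, for the same genes, from -0.12 to 0.16 at 100 μM CA. Below 0 were 3 of the 6 probes at 50 μM CA and 2 at 100 μM CA, beside 51.8% and 54.8% of all probes. At least 1.5-fold lower were 0 of the 6 at either dose, beside 2.17% and 1.80% of all probes. With so few probes, a count of 0 does not set the flanking genes apart from other probes. Of the 14 metallothionein probes, 7 and 8 were at least 1.5-fold lower. The number of flanking genes was set with their values known.

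**Figure D4:**
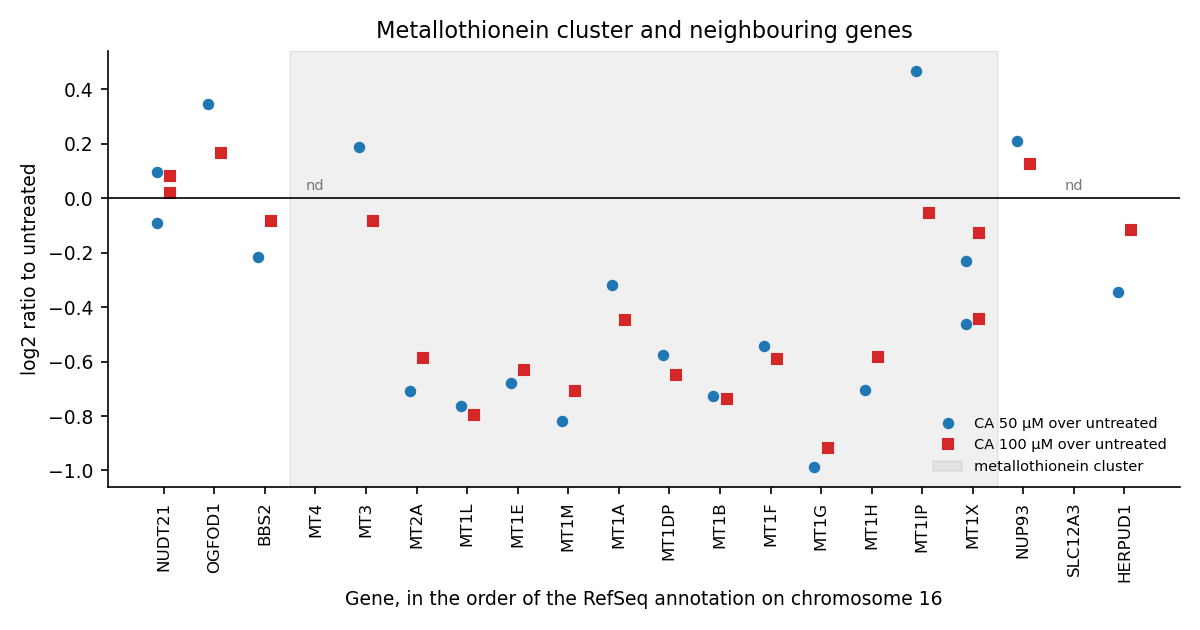
Log2 ratio to untreated at 50 μM CA (blue circles) and 100 μM CA (red squares) for probes of the metallothionein cluster (grey field) and of the 3 genes with a probe on each side, in the order of the RefSeq annotation and not to scale. The letters nd mark genes without a probe well above background on both arrays. The flanking genes have medians of 0.00 and 0.05, and the cluster has medians of -0.63 and -0.59.

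Zinc exporters other than SLC30A1 had ratios near 0. Of 10 listed genes, 7 were measured with 9 probes, and their median log2 ratio was -0.06 at 50 μM CA and -0.03 at 100 μM CA. At 50 μM CA 0 of 9 were past 1.5-fold, beside 5.05% of all probes upwards and 2.17% downwards. The count was also 0 at 100 μM CA, beside 2.51% and 1.80%. With so few probes, a count of 0 does not set the list apart. SLC30A10, a liver exporter of manganese as well, read 8051 units untreated, 7428 at 50 μM CA and 8397 at 100 μM CA, and had the lowest ratio of the list at 50 μM CA (-0.31, and -0.18 at 100 μM CA). The highest at 50 μM CA was SLC30A7, which loads zinc into the secretory pathway (0.16, and 0.06 at 100 μM CA). At 100 μM CA the list ran from -0.22 (SLC30A3) to 0.12 (SLC30A9), and SLC30A4, SLC30A8 and TMEM163 were not measured.

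Zinc importers were mixed in direction. Of 14 listed genes, 13 were measured with 15 probes, with median log2 ratios of -0.00 at 50 μM CA and 0.02 at 100 μM CA. At least 1.5-fold higher were 2 of 15 probes at 50 μM CA, beside 5.05% of all probes, and 3 of 15 at 100 μM CA, beside 2.51%. As much lower were 0 at either dose, beside 2.17% and 1.80%. Those counted as higher at 100 μM CA include SLC39A3 and a dim probe of SLC39A14. Both had their 100 μM CA spots in disturbed areas, so that count is less certain. SLC39A3, an importer of the plasma membrane, was the only gene of the zinc and copper lists to reach 2-fold with a measured ratio. Its dim probe read 28.7, 63.0 and 72.0 units, with log2 ratios of 0.95 and 1.09, and its 100 μM CA spot lay in an area where dim probes were bright on that array alone.

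SLC39A7, which releases zinc from the endoplasmic reticulum, read 919, 1638 and 1286 units, with log2 ratios of 0.64 and 0.25. SLC39A9, a transporter of the Golgi and plasma membrane, read 61.6, 97.9 and 110 units (0.48 and 0.60). The probes of SLC39A14, the liver importer of iron, zinc and manganese, disagreed in size, with log2 ratios of -0.00 and 0.07 for a probe that read 14812, 16850 and 18302 units, and of 0.41 and 0.59 for a dim one whose 100 μM CA spot lay in a disturbed area. SLC39A4, the importer that intestinal zinc uptake depends on, had the lowest ratios of the list, with 2211, 1749 and 1869 units (-0.53 and -0.48).

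SLC39A5, an importer of liver, intestine and pancreas, read 4927, 4216 and 4849 units (-0.41 and -0.26). SLC39A10 was printed at 10 places on each array, which gave a log2 ratio of 0.14 ± 0.044 at 50 μM CA and 0.10 ± 0.058 at 100 μM CA (SD over spots of the same array, not over cultures). Spots of this 1 probe thus ranged from 0.08 to 0.25 and from 0.02 to 0.20.

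Copper is the other metal that metallothioneins bind in liver cells, and genes of copper handling were listed for that reason. All 15 genes had a measured probe at 50 μM CA and 14 at 100 μM CA. Median log2 ratios were -0.08 over 19 probes and -0.02 over 18 probes. At 50 μM CA 0 were past 1.5-fold, beside 5.05% of all probes upwards and 2.17% downwards. The count was also 0 at 100 μM CA, beside 2.51% and 1.80%. With so few probes, a count of 0 does not set the list apart. SOD1, the copper and zinc superoxide dismutase, read 35816 units untreated, 35929 at 50 μM CA and 40735 at 100 μM CA (-0.18 and -0.05). The low end was SLC31A2, a copper transporter of endosomes, at 50 μM CA (-0.50, and -0.23 at 100 μM CA) and ceruloplasmin (CP), the copper protein of plasma, at 100 μM CA (-0.37).

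The high end was a dim probe of ATP7A, a copper-pumping ATPase, at 50 μM CA (64.5, 105 and 68.3 units, log2 ratios 0.52 and -0.15), while a second ATP7A probe gave -0.16 and 0.01. At 100 μM CA it was a probe of SLC31A1, the main copper importer, with 0.22. Another ATP7A probe was well above background on the untreated array alone (20.5 units, with 8.35 and 13.7 on the CA arrays), and was at least 1.86-fold lower at 50 μM CA and at least 1.63-fold lower at 100 μM CA, counted against the lowest signal well above background or its own signal, whichever was higher. A dim probe of STEAP3, a metal reductase, was well above background on the CA arrays alone. On the same count it was at least 1.68-fold and 1.25-fold higher. A brighter STEAP3 probe read 694, 895 and 873 units, with scaled log2 values of -0.61, -0.43 and -0.52. The ATP7A probes thus differed in direction, and bounds were not counted in the list.

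**Figure D5:**
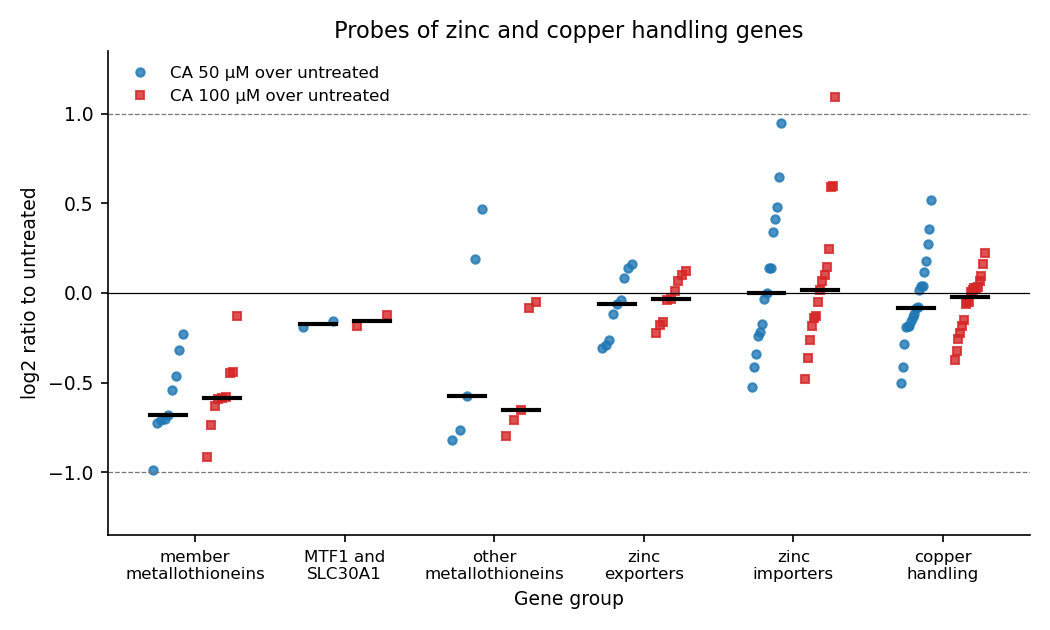
Log2 ratio to untreated of each measured probe at 50 μM CA (blue circles) and 100 μM CA (red squares) in the lists of zinc and copper handling genes, with black bars at the median and dashed lines at 2-fold. The member metallothioneins lie below 0 throughout, with medians of -0.68 and -0.59, and the medians of zinc exporters, zinc importers and copper genes lie between -0.08 and 0.02.

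The label of the cells was checked against markers. Of 12 genes of hepatocytes and hepatoma, 10 to 11 were well above background, and the highest reading on an array was 100920 to 112826 units, that of albumin. The exceptions were HNF4A and TF. HNF4A read 9.37 units untreated, 21.8 at 50 μM CA and 15.5 at 100 μM CA, well above background at 50 μM CA alone. The TF spot was left out as an outlier on the untreated and 50 μM CA arrays. Markers of stromal, leukocyte and endothelial cells read at most 527, 378 and 610 units on any array, with 4 to 5 of 6 stromal, 5 of 5 leukocyte and 3 of 4 endothelial genes above background. Of the stromal genes, COL1A1 was above background at 100 μM CA alone, with 51.7 units, and its spot there lay in a disturbed area. Any part of stromal, leukocyte and endothelial cells in the metallothionein values was not tested. In RNA of a whole culture, fewer cells with a transcript and less of it per cell cannot be told apart. Well above background were 70.4% to 71.1% of gene spots per array. Disturbed areas, in which dim probes were bright on 1 array alone, held 5.89% of the gene spots of the 100 μM CA array but 46 and 38 spots of the untreated and 50 μM CA arrays, and of the members they touched MT1G alone.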

How the data were processed

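The authors made Cy3-labelled RNA from total RNA of Huh7 cells and applied it to whole human genome Agilent arrays, 1 per group. Per the labels and file headers, the authors used Feature Extraction 11.0.1.1, and the deposited files hold intensity values per spot. Background subtraction and removal of surface trends were already part of the deposited processed intensity. The authors also deposited a table of log2 values, whose scaling was not stated but whose columns share nearly the same quartiles. It served as an alternative.

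Main values were log2 processed signals minus the 75th percentile of the gene spots of each array. Control spots and spots flagged as outliers were left out, spots of 1 probe were averaged, and probes of 1 gene were kept apart. Ratios needed a probe well above background on both arrays. Accessions were matched to RefSeq gene names of GRCh38.p14, which named 75.5% of probes. The array was annotated on GRCh37, so that gene coordinates from that table were not joined to probes and the table gave only the order of neighbouring genes and the promoter sequences.

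The members and lists were chosen with earlier results of these data known. Named were all member probes and, in each further list, genes past 2-fold and those with the highest and lowest ratios or the highest signal. Other genes and probes, among them SLC39A5, SLC39A7, SLC39A9, SLC39A10, STEAP3 and the flanking genes, were named after their values had been seen. The design had no replicates, so no test was run and counts past 2-fold or 1.5-fold are descriptions. The number of arrays limits the precision. As alternatives, arrays were scaled by cyclic loess, by quantile normalization or by the median of measured probes, values were taken from normexp (offset 50) or from the deposited log2 table, and other choices were a filter on 1 array, no filter, the brightest probe per gene, and leaving out saturated spots, spots with background flags or disturbed areas. Normexp used median spot and background intensities without spots with background flags, since the fit failed with them. The steps were tested on simulated data. The software was Python 3.11.15, numpy 2.4.6, pandas 2.3.3, matplotlib 3.10.9, R 4.3.3 and limma 3.58.1. The number of flanking genes was set after their values had been seen, and a gene farther out is not reported here. Other arrays of the study were not analysed here.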

Additional observations from a re-analysis of the deposited data

How the results depend on the processing

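Each measured member metallothionein kept a log2 ratio below 0 to untreated at both doses under every alternative that gave a value for it. For all members at CA 50 μM, the median was -0.45 with normexp, -0.39 without spots with background flags (which takes out MT1E, MT1F and MT1H) and -0.61 with the brightest probe per gene. At CA 100 μM it was -0.49 with quantile normalization, cyclic loess or the deposited log2 values, and -0.50 without disturbed areas. For the metallothioneins alone at CA 50 μM, the median was -0.60 with quantile normalization or the deposited values, -0.58 with cyclic loess and -0.59 without background flags. In place of 0 members at least 2-fold lower there were 5 at each dose with the added limit of 1.5-fold. There was 1, among the metallothioneins, at CA 50 μM with quantile normalization, cyclic loess, median centring or the deposited values (MT1G, -1.06 with quantile normalization), and 1 at CA 100 μM with no filter (the second MT1H probe, not above background). Between the doses, 1 of 6 metallothionein probes was below 0 with normexp in place of 3 of 9, where normexp was run without the spots with background flags, and leaving out those spots alone gave 2 of 6. The zinc exporters had a median of -0.15 at CA 50 μM with normexp, and the importers had -0.12 with normexp, 0.090 with quantile normalization, 0.11 with cyclic loess, 0.10 with the deposited values and 0.067 with a filter on 1 array or with no filter. SLC39A3 was not 2-fold higher at CA 100 μM with normexp or without disturbed areas, the latter because its spot is left out, and 0 importers then were. The causes of the other shifts were not tested. No paired analysis was possible because each group has 1 array, and for that reason no replicate could be left out. The arrays share a scan, so slide and scan could not be fitted. Dim probes such as those of MT1DP and SLC39A3 have the least certain ratios. The ratio of MT1G at CA 100 μM is also less certain, since its spot lay in a disturbed area.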
